A study of Mus musculus with 2 samples.

Results

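The 10 genes described here encode the effector products of killer lymphocytes: the granzymes Gzma, Gzmb and Gzmk, the pore-forming protein Prf1, the granule membrane protein Nkg7, the death ligand Fasl, the cytokine Ifng, and the chemokines Ccl3, Ccl4 and Ccl5. They were chosen by name, out of 32285 features measured, and their RNA was read as unique molecular identifiers (UMIs, 1 per captured transcript) in single cells of mouse liver tumors. The hKO library came from C57BL/6J mice in which Fabp5, a fatty acid binding protein, was deleted in hepatocytes with a tamoxifen-activated Cre driven by the Alb promoter. The WT library came from wild-type littermates, and the labels do not say whether these carried the Cre. Both groups were given 5 injections of tamoxifen at 100 mg/kg, spaced 3 days apart and each after a 16 h fast, starting at an age of 6 to 8 weeks. Feeding with the diet labelled CD-HFD began 2 weeks after the last injection and went on for 15 months. Each library is a single pool of 2 to 3 tumors, so there is 1 library per group, no replicate and no test. All intervals are 95% intervals of counting error only.

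Cytotoxic T cells and natural killer (NK) cells kill by releasing granules toward a target cell. Perforin opens the target membrane, and granzymes, which are serine proteases, enter and cleave proteins that set off cell death. The same cells can kill through Fas ligand, which engages the receptor Fas on the target, and they secrete interferon gamma, which activates macrophages and raises antigen presentation. Ccl3, Ccl4 and Ccl5 are chemokines that draw in further leukocytes. In the liver these genes are known from NK cells, from CD8 T cells, and from tissue-resident lymphocytes that carry the collagen-binding integrin chain Itga1.

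After filtering, 10402 hKO and 9459 WT cells were kept, with median totals of 3642.5 and 3822 UMIs. Of these, 1952 hKO and 1810 WT cells lay in T-like and NK-like clusters. They were sorted into 5 gates by UMIs of other genes, so that no member decided a gate: CD8 (601 hKO and 540 WT cells), CD4 (271 and 219), gamma-delta (134 and 42), NK (104 and 158) and cells with both Itga1 and Cd160 (74 and 279). The other 768 hKO and 572 WT lymphocytes met no gate. Median depths per gate ran from 3181 to 4734.5 UMIs per cell in hKO and from 3646 to 4482.5 in WT. The libraries stood apart: 493 of the 601 hKO CD8 cells and 217 of the 271 hKO CD4 cells lay in cluster 8, whereas 485 of the 540 WT CD8 cells and 190 of the 219 WT CD4 cells lay in cluster 9. NK cells of both libraries lay mainly in cluster 5, with 98 of 104 in hKO and 156 of 158 in WT. In hepatocyte-like cells Fabp5 stood at 13.7 counts per 1000000 UMIs (CPM) in hKO, against 100.4 CPM in WT, and whether the counted 3′ end is lost with the deleted stretch is not stated in the labels. In the gates, 12 abundant hepatocyte genes made up 0.403% to 0.715% of UMIs in hKO and 0.185% to 0.284% in WT, while erythroid genes made up 0.0196% to 0.259% in hKO and 0.21% to 1.73% in WT. The part of either signal in the results was not tested. The libraries shared 29 barcodes among kept cells.

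For 6 of the 10 genes the gate with the highest level was the same in both tumors. Ccl5 was the most abundant of the 10 in the CD8 gate, where it reached 11766 CPM in hKO and 10839 CPM in WT, and it was also the most abundant in the CD4, NK, gamma-delta and Itga1 Cd160 gates. Gzma and Prf1 were highest in NK cells, Gzmb in Itga1 Cd160 cells, Gzmk in CD8 cells, and Nkg7 and Ccl5 in CD8 cells, in both libraries. Among these, Gzmk in hKO CD8 cells was not separated from hKO CD4 cells (log2 ratio 0.11, −0.09 to 0.31). For Ccl4 the highest level lay in CD4 cells in hKO and in CD8 cells in WT, each apart from the next gate beyond counting error. For the other 3 the top gate of 1 library was likewise not separated from the next. Fasl was highest in NK cells in hKO, and in WT in Itga1 Cd160 cells, not separated from NK cells (log2 ratio 0.11, −0.26 to 0.50). Ifng was highest in NK cells in hKO, and in WT in CD8 cells, not separated from CD4 cells (0.07, −0.34 to 0.49). Ccl3 was highest in hKO in NK cells, not separated from CD8 cells (0.24, −0.11 to 0.58), and in WT in CD8 cells. CPM counts 3′ transcript ends, so levels of different genes need no correction for length.

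**Figure D1:**
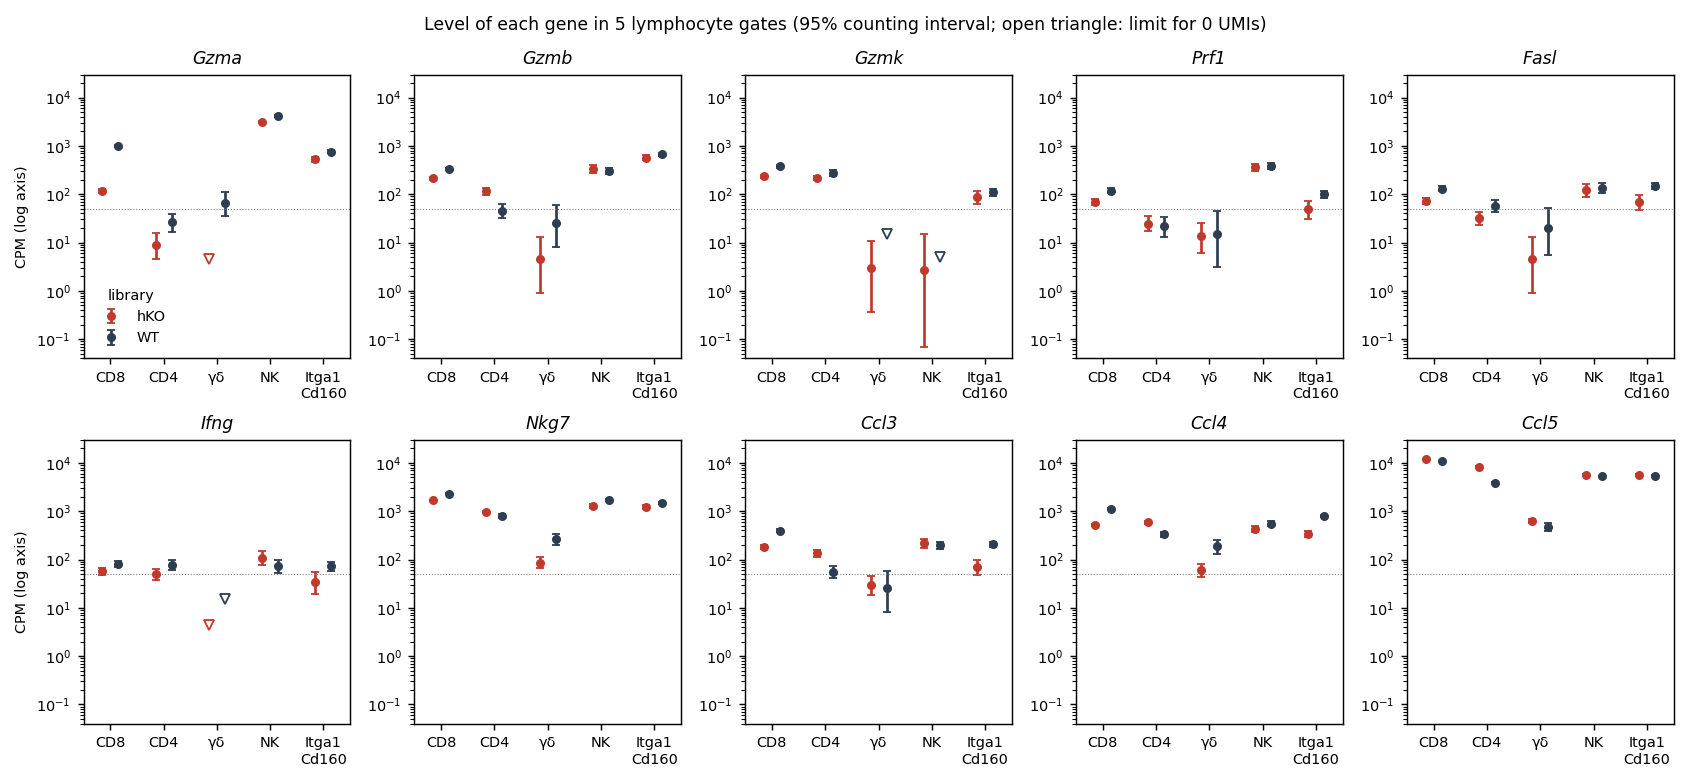
Level of each of the 10 genes in CPM (log axis) in the CD8, CD4, γδ (gamma-delta), NK and Itga1 Cd160 gates, with hKO in red left of WT in dark blue. Points are sums over all cells of a gate divided by the gate's UMIs, bars are exact Poisson 95% intervals of counting error, open triangles mark the limit that 0 UMIs allows, and the dotted line marks 50 CPM. Gzma in the CD8 gate stood at 116 CPM in hKO against 979 CPM in WT, while Ccl5 stood at 3878 CPM or more in the other 4 gates than γδ.

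Within each library the NK gate was set against the CD8 gate. Here and below, a gene was counted as higher or lower when it reached 50 CPM on at least 1 side, its log2 ratio was 1 or more or −1 or less, and the interval left out 0. In hKO, 2 of the 10 genes were higher in NK cells (9.36% of 3976 genes) and 2 were lower (4.68%). In WT, 2 were higher (7.38% of 4145 genes) and 2 were lower (4.22%). The 4 genes were the same in both libraries. Gzma stood at 3126 CPM in hKO NK cells against 116 CPM in hKO CD8 cells, a log2 ratio of 4.76, and at 4109 CPM in WT NK cells against 979 CPM in WT CD8 cells, a log2 ratio of 2.07. Prf1 was higher in NK cells by a log2 ratio of 2.41 in hKO and 1.68 in WT. Ccl5 was lower in NK cells by −1.04 in hKO and −1.05 in WT. Gzmk was hardly detected in NK cells, with 1 UMI in 104 hKO cells and 0 UMIs in 158 WT cells. The count of 0 allows a level of up to 4.92 CPM and a Gzmk UMI in up to 1.90% of WT NK cells, and it sets no limit on the share of cells that express the gene.

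Cells with Itga1 and Cd160 were gated before the CD8 gate was filled. Among them, 36 of 74 hKO cells (48.6%) and 164 of 279 WT cells (58.8%) had a UMI of Cd8a or Cd8b1. The gate is therefore not a lineage apart from CD8 cells. The Itga1 Cd160 cells were set against the CD8 cells of the same library. In hKO, 2 of the 10 genes were higher (3.8% of 3840 genes), Gzma and Gzmb, and 3 were lower (1.46%), Gzmk, Ccl3 and Ccl5. In WT, 0 were higher (2.89% of 3978 genes) and 2 were lower (1.51%), Gzmk and Ccl5. Gzma stood at 530 CPM in hKO Itga1 Cd160 cells against 116 CPM in hKO CD8 cells (2.19), and at 765 CPM in WT Itga1 Cd160 cells against 979 CPM in WT CD8 cells (−0.36). Gzmb stood at 572 CPM in hKO Itga1 Cd160 cells against 213 CPM in hKO CD8 cells (1.43), and at 665 CPM in WT Itga1 Cd160 cells against 333 CPM in WT CD8 cells. The WT log2 ratio of Gzmb, 1.00 when rounded, lay just under the limit of 1. NK cells were also set against Itga1 Cd160 cells. In hKO 4 of the 10 genes were higher in NK cells (6.22% of 4102 genes), Gzma, Prf1, Ifng and Ccl3, and 1 was lower (6.48%), Gzmk. In WT 2 were higher (4.16% of 4154 genes), Gzma and Prf1, and 2 were lower (3.35%), Gzmb and Gzmk. Gzmb was short of the limit in hKO, at 334 CPM in hKO NK cells against 572 CPM in hKO Itga1 Cd160 cells (−0.77), and past it in WT, at 298 CPM in WT NK cells against 665 CPM in WT Itga1 Cd160 cells (−1.16). Some neighbours in the order of gates could not be separated beyond counting error. Examples are Prf1 in CD8 and Itga1 Cd160 cells of both libraries, and Ccl5 in NK and Itga1 Cd160 cells of both libraries.

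Gamma-delta cells held less of all 10 transcripts than CD8 cells in both libraries, and CD4 cells held less of 3 in hKO and of 8 in WT. In the CD4 gate 0 of 10 genes were higher and 3 were lower than in CD8 cells in hKO (2.82% and 1.28% of 3763 genes), and 0 were higher and 8 were lower in WT (2.87% and 2.41% of 3977 genes). The 2 that were not lower in WT were Gzmk and Ifng. Gzmk stood at 217 CPM in hKO CD4 cells against 234 CPM in hKO CD8 cells, and at 277 CPM in WT CD4 cells against 380.6 CPM in WT CD8 cells. Ccl4 stood at 596 CPM in hKO CD4 cells against 525 CPM in hKO CD8 cells (0.18, short of the limit), and at 332 CPM in WT CD4 cells against 1105 CPM in WT CD8 cells. All 10 genes were lower in gamma-delta than in CD8 cells in hKO (5.76% of 4083 genes lower, 12.5% higher) and all 10 in WT (6.98% of 4401 genes lower, 11.1% higher). Ifng had 0 UMIs in gamma-delta cells of both libraries, which allows up to 4.46 CPM in hKO and 15.2 CPM in WT.

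The comparison of hKO with WT asks whether loss of Fabp5 in hepatocytes goes with other levels of these genes in lymphocytes of the tumor. The level of 50 CPM was reached in a library by all 10 genes in CD8 and Itga1 Cd160 cells, by 9 in NK cells, 8 in CD4 cells and 4 in gamma-delta cells. In the CD8 gate 0 of the 10 genes were higher in hKO and 3 were lower, Gzma, Ccl3 and Ccl4, beside 5.42% of 3856 genes higher and 1.58% lower. In the Itga1 Cd160 gate 0 were higher and 5 were lower, Ccl3, Ccl4, Ifng, Fasl and Prf1, beside 5.77% of 4107 genes higher and 3.48% lower. In the CD4 gate 3 were higher, Gzmb, Ccl3 and Ccl5, and 0 were lower, beside 6.7% of 4043 genes higher and 3.46% lower. In the gamma-delta gate 0 were higher and 3 were lower, Gzma, Ccl4 and Nkg7, beside 8.55% of 4457 genes higher and 7.22% lower. In the NK gate 0 were higher and 0 lower, beside 4.31% of 4151 genes higher and 4.36% lower.

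**Figure D2:**
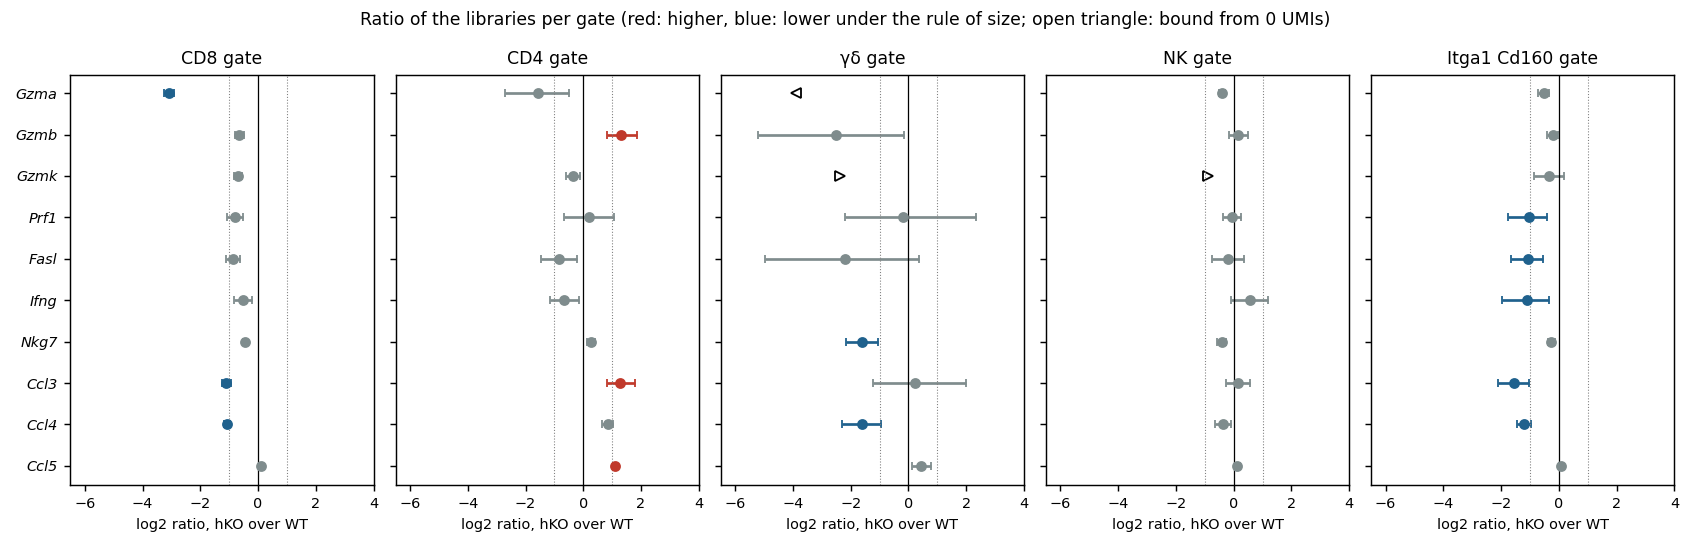
Log2 ratio of hKO over WT for each of the 10 genes (rows) in each gate (panels). Points are ratios of CPM with exact conditional binomial 95% intervals of counting error, red points were counted as higher and blue points as lower, open triangles are bounds where a library had 0 UMIs, and dotted lines mark −1 and 1. Leaving out bounds, Gzma in the CD8 gate lies farthest from 0 among the blue points, at −3.08, and no point in the NK gate is colored.

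The median log2 ratio of the members was −0.75 in CD8 cells, where all genes tested had a median of −0.25, and −0.79 in Itga1 Cd160 cells, where they had −0.18. It was 0.23 in CD4 cells (all genes −0.16) and −0.13 in NK cells (all genes −0.12). In gamma-delta cells it was −1.62 (all genes −0.21), over the 9 members with a UMI there, with Gzma and Gzmk each set against the floor of 3 counts in a library at 0. The member medians took in every member with a UMI, while those of all genes took only genes that reached 50 CPM in a library. Of the 10 members, 8 reached it in CD4 cells, 9 in NK cells and 4 in gamma-delta cells. Gzmk entered the NK median at −0.89, from 1 UMI in hKO and 0 in WT set to 3 counts. The ratio was under 0 for 9 of the 10 members in the CD8 gate and for 9 in the Itga1 Cd160 gate, and the member above 0 was Ccl5 in both. Genes that reached 50 CPM in both libraries had a median log2 ratio between −0.22 and −0.11 in the 5 gates. Scaled to that median, the CD8 gate had 1 lower member, Gzma (0.752% of 3856 genes lower), with Ccl3 at −0.87 and Ccl4 at −0.85. The Itga1 Cd160 gate then had 2, Ccl3 and Ccl4 (2.07% of 4107 genes lower).

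Gzma, a granule protease of trypsin-like specificity, had the ratio farthest from 0 in the CD8 gate. In CD8 cells it stood at 116 CPM in hKO (341 UMIs) against 979 CPM in WT (2292 UMIs), a log2 ratio of −3.08 (−3.25 to −2.92). Gzma UMIs were found in 47 of 601 hKO CD8 cells, 7.82% (5.80% to 10.3%), against 107 of 540 WT CD8 cells, 19.8% (16.5% to 23.4%). With each cell thinned to 1000 UMIs the shares were 4.19% in hKO and 14.5% in WT. B-like cells, which should lack the gene, had a Gzma UMI in 0.0782% of hKO and 1.13% of WT cells at median depths of 2576 and 3216 UMIs, so both CD8 shares lay above that background. Cells with the gene also held less of it: a mean of 7.26 UMIs per positive cell in hKO, against 21.4 in WT, and at most 38 UMIs in a cell in hKO, against 236 in WT.

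Gzma was lower in hKO CD8 cells in each of the 3 clusters that held most of the gate. In cluster 8 Gzma stood at 137 CPM in 493 hKO cells against 1187 CPM in 25 WT cells, and in cluster 9 at 20.3 CPM in 20 hKO cells against 684 CPM in 485 WT cells. In the cycling cluster 14 it stood at 68.7 CPM in 68 hKO cells against 4681 CPM in 13 WT cells. With only the cells of cluster 8, the log2 ratio of the gate was −3.12 (−3.42 to −2.81). The 10 cells with the most Gzma held 66.9% of its UMIs in hKO CD8 cells and 48.0% in WT CD8 cells.

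Gzma did not differ to this extent in the NK and Itga1 Cd160 gates. In NK cells it stood at 3126 CPM in hKO against 4109 CPM in WT, a log2 ratio of −0.39 (−0.50 to −0.29), and 59.6% of hKO and 60.8% of WT NK cells had a UMI. In Itga1 Cd160 cells it stood at 530 CPM in hKO against 765 CPM in WT (−0.53). The intervals of these ratios do not overlap that of the CD8 gate. Gzma and its neighbour Gzmk lie on chromosome 13, on the minus strand. The 150 bases before the starts of both, and of Gzmb on chromosome 14, are shown because the 3 granzymes took such different places among the gates. They are RefSeq sequences of build GRCm38.p6, Gzma from chr13:113100982-113101131, Gzmk from chr13:113180966-113181115 and Gzmb from chr14:56262335-56262484, all minus strand and written 5′ to 3′. Capitals mark matches, on either strand, to the core promoter box TATAA, the AP-1 motif TGANTCA or the T-box motif GGTGTNA. Of 32851 windows of this length, 14.2% hold the core promoter box, 4.24% the AP-1 motif and 4.95% the T-box motif.
Gzma: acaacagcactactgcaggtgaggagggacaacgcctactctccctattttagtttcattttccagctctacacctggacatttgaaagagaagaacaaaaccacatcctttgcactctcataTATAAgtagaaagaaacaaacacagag
Gzmk: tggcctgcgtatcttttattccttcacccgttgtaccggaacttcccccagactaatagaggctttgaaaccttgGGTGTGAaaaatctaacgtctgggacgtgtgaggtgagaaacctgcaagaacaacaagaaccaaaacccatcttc
Gzmb: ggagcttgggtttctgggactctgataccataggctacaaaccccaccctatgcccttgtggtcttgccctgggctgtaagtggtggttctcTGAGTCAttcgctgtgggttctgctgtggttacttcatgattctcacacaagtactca
In these windows the core promoter box letters stand in Gzma, the T-box letters in Gzmk and the AP-1 letters in Gzmb. A match of letters is a description and not a site shown to be in use.

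Gzmb, the granzyme that cleaves after aspartate and activates caspases, was counted as higher in hKO CD4 cells and in no other gate. In CD4 cells it stood at 115 CPM in hKO (153 UMIs) against 45.9 CPM in WT (40 UMIs), a log2 ratio of 1.32 (0.81 to 1.86). It was 0.80 with the gates applied to every kept cell and 0.69 with subclusters in place of gates, under the limit. In cluster 8 alone it was 1.20 (−0.39 to 3.51), from 87 UMIs in 217 hKO cells and 3 UMIs in 16 WT cells. The 10 highest cells held 65.4% of the Gzmb UMIs of hKO CD4 cells and 62.5% of those of WT CD4 cells. A single hKO cell had 30 of the 153. Shares of CD4 cells with a UMI were 15.9% (11.7% to 20.8%) in hKO and 10.96% (7.15% to 15.9%) in WT, and thinned they were 6.27% and 4.11%, with intervals that overlap. In CD8 cells it stood at 213 CPM in hKO against 333 CPM in WT, a log2 ratio of −0.65 (−0.80 to −0.49), short of the limit of 1, and the ratio was 0.12 (−0.51 to 0.83) in cluster 8 alone. In Itga1 Cd160 cells, where its level was highest, 572 CPM in hKO stood against 665 CPM in WT (−0.22), and in NK cells 334 CPM in hKO against 298 CPM in WT (0.16).

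Gzmk, a granzyme with trypsin-like specificity that is known from memory-type and exhausted CD8 T cells, was the most widely detected granzyme of CD8 cells. It stood at 234 CPM in hKO against 380.6 CPM in WT CD8 cells (−0.70, −0.85 to −0.56), with a UMI in 50.6% of hKO and 60.0% of WT cells. In CD4 cells it stood at 217 CPM in hKO against 277 CPM in WT (−0.35). Neither ratio reached the limit of 1, and both intervals lie under 0. The 10 cells with the most Gzmk held 12.5% of its UMIs in hKO CD8 cells and 10.8% in WT CD8 cells, so this gene was spread over many cells where Gzma was held by few.

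**Figure D3:**
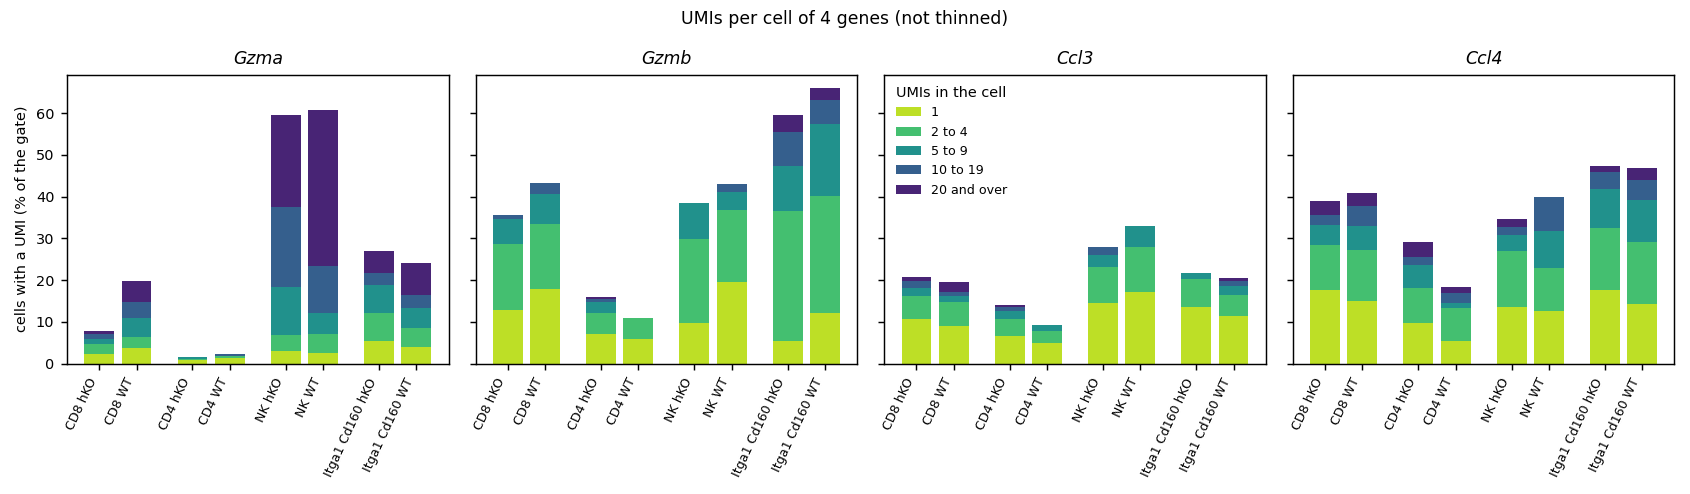
Share of cells of a gate with a UMI of Gzma, Gzmb, Ccl3 or Ccl4 (% of the gate), with hKO left of WT in each gate and colors for the number of UMIs in the cell, not thinned. Gzma UMIs were found in 7.82% of hKO against 19.8% of WT CD8 cells, while 20.6% of hKO against 19.4% of WT CD8 cells had Ccl3, with 20 or more UMIs in 0.832% of hKO and 2.41% of WT cells.

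Prf1, the pore-forming protein of the granules, stood at 68.2 CPM in hKO against 118 CPM in WT CD8 cells, a log2 ratio of −0.79 (−1.06 to −0.53). In NK cells, where it was highest, 364 CPM in hKO stood against 380.4 CPM in WT (−0.07, −0.38 to 0.25). In Itga1 Cd160 cells 48.7 CPM in hKO stood against 100.4 CPM in WT, a log2 ratio of −1.04 (−1.75 to −0.40) from 23 and 141 UMIs. In CD4 cells it had 33 UMIs in hKO and 19 in WT, with an interval of the ratio that includes 0.

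Nkg7, a membrane protein of cytotoxic granules that is needed for their release, was in nearly every CD8 cell, with a UMI in 93.7% of hKO and 93.0% of WT cells. Its level was 1665 CPM in hKO against 2281 CPM in WT CD8 cells (−0.45, −0.51 to −0.40). In NK cells it was 1287 CPM in hKO against 1715 CPM in WT (−0.41), and in Itga1 Cd160 cells 1227 CPM in hKO against 1464 CPM in WT (−0.26). The CD4 gate went the other way, 966 CPM in hKO against 797 CPM in WT (0.28, 0.14 to 0.41). None of these 4 ratios reached the limit of 1, although their intervals leave out 0.

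Fasl, the ligand of the death receptor Fas, had its widest detection before thinning in Itga1 Cd160 cells. There 32.4% of hKO cells (22.0% to 44.3%) and 49.8% of WT cells (43.8% to 55.8%) had a UMI. Thinned, the hKO shares were 6.76% in Itga1 Cd160, 8.05% in CD8 and 7.84% in NK cells. The thinned WT shares were 16.5%, 11.9% and 14.3% in the same order. Its level in Itga1 Cd160 cells was 69.9 CPM in hKO (33 UMIs) against 147 CPM in WT (207 UMIs), a log2 ratio of −1.08 (−1.65 to −0.54). In CD8 cells it was 72.0 CPM in hKO against 131 CPM in WT (−0.87, −1.12 to −0.61), and in NK cells 119 CPM in hKO against 136 CPM in WT (−0.19, −0.75 to 0.35). Ifng, which encodes interferon gamma, was low everywhere. In Itga1 Cd160 cells it was 33.9 CPM in hKO (16 UMIs) against 72.6 CPM in WT (102 UMIs), a log2 ratio of −1.10 (−1.96 to −0.33). In NK cells it had the highest ratio of the members there, 109 CPM in hKO against 73.8 CPM in WT (0.56, −0.09 to 1.20), with an interval that includes 0. In CD8 cells it was 57.0 CPM in hKO against 82.0 CPM in WT (−0.52), and in CD4 cells 49.5 CPM in hKO against 78.1 CPM in WT (−0.66).

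The chemokines Ccl3 and Ccl4, which attract leukocytes, were lower in hKO CD8 cells and not in hKO CD4 cells. In CD8 cells Ccl3 stood at 184 CPM in hKO against 393 CPM in WT (−1.10, −1.25 to −0.94), and Ccl4 at 525 CPM in hKO against 1105 CPM in WT (−1.07, −1.16 to −0.98). The shares of CD8 cells with a UMI were close: 20.6% of hKO and 19.4% of WT cells for Ccl3, and 38.9% of hKO and 40.9% of WT cells for Ccl4. Their B-like background was 1.09% in hKO and 1.13% in WT for Ccl3, and 2.27% and 1.73% for Ccl4. The difference lay in the amount per positive cell, on average 4.36 UMIs of Ccl3 in hKO against 8.76 in WT, and 6.61 UMIs of Ccl4 in hKO against 11.7 in WT. A few cells carried much of it: the 10 highest cells held 46.2% of Ccl3 UMIs in hKO and 65.4% in WT, and a single WT cell had 253 UMIs of Ccl4. Without the 5 highest cells of each library the ratios were −0.79 for Ccl3 and −0.89 for Ccl4, under the limit of 1.

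In CD4 cells Ccl3 stood at 134 CPM in hKO against 55.1 CPM in WT (1.28, 0.82 to 1.78), with a UMI in 14.0% of hKO and 9.13% of WT cells. The 10 highest cells held 77.7% of these Ccl3 UMIs in hKO and 79.2% in WT, and 1 hKO cell had 62 of the 179. Without the 5 highest cells of each library the ratio was 0.90, and with the cells of cluster 8 alone it was −1.01 (−1.90 to 0.0048), so this call rests on which cells are taken. Ccl4 stood at 596 CPM in hKO against 332 CPM in WT CD4 cells (0.85, 0.65 to 1.04), and in cluster 8 alone at 402 CPM in 217 hKO cells against 1381 CPM in 16 WT cells (−1.78). The 150 bases before the start of Ccl3 are shown because it was counted as lower in hKO CD8 cells and as higher in hKO CD4 cells (RefSeq, GRCm38.p6, chr11:83649379-83649528, minus strand, 5′ to 3′). Capitals mark the T-box letters, read on the opposite strand, and then TATAA.
Ccl3: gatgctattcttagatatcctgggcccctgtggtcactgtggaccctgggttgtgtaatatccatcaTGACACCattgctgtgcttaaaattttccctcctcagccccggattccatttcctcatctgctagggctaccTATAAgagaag

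Ccl5, a chemokine that attracts T cells and monocytes and the most abundant transcript of the group, differed little in CD8 cells: 11766 CPM in hKO against 10839 CPM in WT, a log2 ratio of 0.12 (0.10 to 0.14). It was the only member above 0 there. In CD4 cells it was 8273 CPM in hKO against 3878 CPM in WT, a log2 ratio of 1.09 (1.04 to 1.15), which was 0.98 with doublets kept and 0.96 with free RNA subtracted. The share of CD4 cells with a Ccl5 UMI was 71.6% (65.8% to 76.9%) in hKO and 56.6% (49.8% to 63.3%) in WT, and 61.6% and 46.6% when thinned. B-like cells had a Ccl5 UMI in 13.8% of hKO and 7.07% of WT cells, 6.24% and 2.43% when thinned. In cluster 8 alone the CD4 ratio was 1.72 (1.53 to 1.92). NK cells (5717 CPM in hKO, 5233 CPM in WT) and Itga1 Cd160 cells (5652 CPM in hKO, 5390.1 CPM in WT) were within a log2 ratio of 0.13 of WT.

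CD8 cells were then split by exhaustion receptors and Tox: 275 hKO and 226 WT cells had UMIs of at least 2 of Pdcd1, Tox, Lag3, Havcr2 and Tigit, and 326 hKO and 314 WT cells did not. The split separates the genes. Ccl3 and Ccl4 were lower in hKO among marked cells alone: Ccl3 stood at 309 CPM in hKO against 874 CPM in WT (−1.50, −1.66 to −1.34), and Ccl4 at 829 CPM in hKO against 2346 CPM in WT (−1.50, −1.60 to −1.40). Among cells without the mark Ccl3 stood at 41.3 CPM in hKO against 40.0 CPM in WT (0.05, −0.52 to 0.61), and Ccl4 at 180.5 CPM in hKO against 194 CPM in WT (−0.10, −0.36 to 0.15). The intervals of the marked and unmarked ratios do not overlap for either gene. Gzma was lower in both parts, 132 CPM in hKO against 983 CPM in WT among marked cells (−2.90) and 97.8 CPM in hKO against 976 CPM in WT among the others (−3.32). Prf1 and Fasl passed −1 among marked cells, at −1.13 and −1.12, and were −0.49 and −0.67 among the others. A deeper cell is more likely to bear the mark. Marked cells had medians of 4519 UMIs in hKO and 3887 in WT, and unmarked cells 3798.5 in hKO and 3907.5 in WT, so marked cells were the deeper ones in hKO and not in WT. Lag3, a marker used for the split, was itself counted as lower in hKO CD8 cells, so the marked cells of the libraries need not be alike. The part of depth and of Lag3 in the split was not tested.

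**Figure D4:**
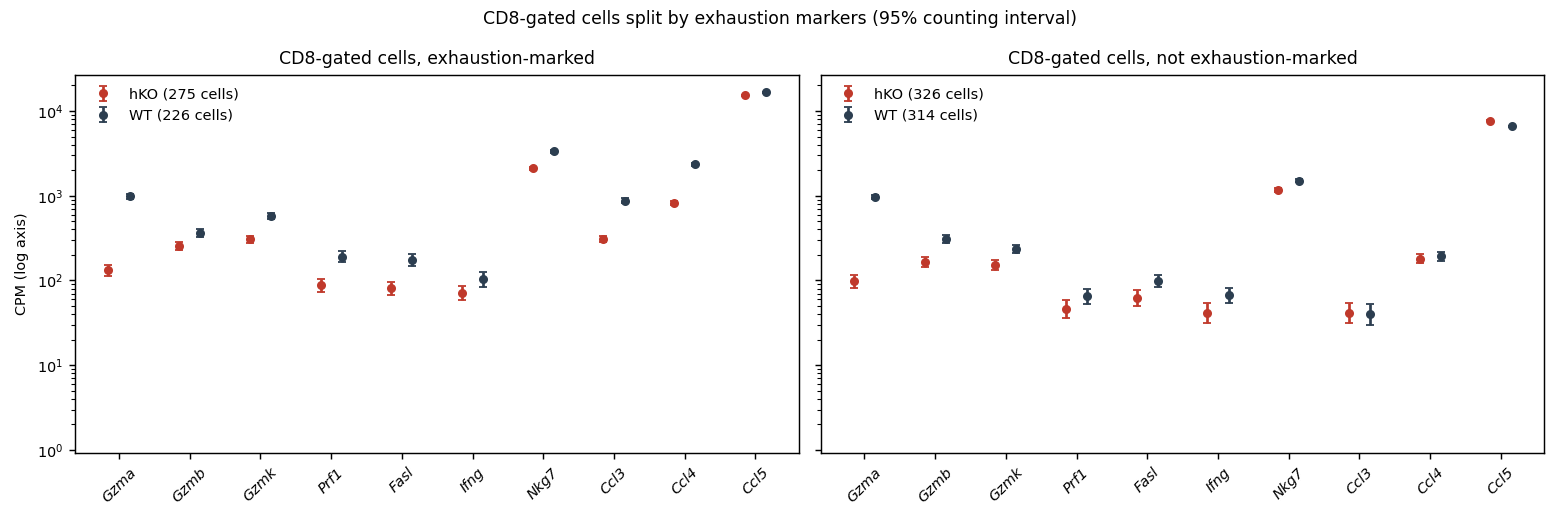
Level of each gene in CPM (log axis) in CD8 cells with UMIs of at least 2 of 5 exhaustion markers (left panel) and in the other CD8 cells (right panel), with hKO in red left of WT in dark blue and exact Poisson 95% intervals of counting error. Ccl3 and Ccl4 are separated in the left panel and overlap in the right one, while Gzma is separated in both.

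In WT gamma-delta cells 7 cells held most UMIs of several members. Of 42 WT gamma-delta cells 34 lay in cluster 10 with most hKO ones, and 7 lay in the NK-like cluster 5. Those 7 cells held 12 of the 13 Gzma UMIs, all 37 Ccl4 UMIs, 48 of the 52 Nkg7 UMIs and 88 of the 93 Ccl5 UMIs of the gate. Gzma was found in only 2 WT cells of the gate, with 12 UMIs in a single cell. Ccl4 was also found in only 2 WT cells, with 25 UMIs in a single cell. Taken whole, the gate had Gzma at 0 UMIs in 134 hKO cells (at most 4.46 CPM) against 65.8 CPM in WT. With hKO set to the floor of 3 counts the log2 ratio was −3.88, with an interval open below that reached up to −3.38. Nkg7 stood at 86.2 CPM in hKO against 263 CPM in WT (−1.61, −2.18 to −1.04), and Ccl4 at 60.9 CPM in hKO against 187 CPM in WT (−1.62, −2.30 to −0.94). Within cluster 10, with 125 hKO and 34 WT cells, none of the 3 was lower. There Ccl4 had 41 UMIs in hKO (65.5 CPM) against 0 in WT. With WT set to the floor of 3 counts its log2 ratio was 1.75, with an interval from 1.38 and open above. Nkg7 had 26 UMIs in hKO (41.5 CPM) against 4 in WT (26.0 CPM), a log2 ratio of 0.67. Its interval of −0.85 to 2.65 includes 0. Ccl5 stood at 403 CPM in hKO against 32.5 CPM in WT (3.63, 2.39 to 5.27). Macrophage genes made up 0.260% of UMIs in hKO and 0.0137% in WT gamma-delta cells, and in WT Adgre1, Csf1r and Clec4f were at 0. Their part in these ratios was not tested.

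In Itga1 Cd160 cells the makeup of the gate differed between the libraries. Of 74 hKO cells 38 lay in the NK-like cluster 5 and 23 in cluster 8, and of 279 WT cells 117 lay in cluster 5 and 148 in cluster 9. Ccl3 stood at 69.9 CPM in hKO against 205 CPM in WT (−1.55, −2.12 to −1.03), and Ccl4 at 339 CPM in hKO against 788 CPM in WT (−1.22, −1.47 to −0.98). A single WT cell had 348 of the 1107 Ccl4 UMIs, and the WT cell with the most Ccl3 had 115 of the 288. Within cluster 5 all 5 genes were short of the limit: Ccl3 −0.52, Ccl4 −0.30, Ifng −0.65, Fasl −0.59 and Prf1 −0.79. Among cells with a CD3 UMI (56 hKO and 230 WT) Ccl3 was −2.02 and Ccl4 −1.69, and among those without (18 hKO and 49 WT) they were −0.50 and −0.09, with intervals that include 0. Gzmb stood at 579 CPM in hKO against 684 CPM in WT in cells with CD3, and at 541 CPM in hKO against 570 CPM in WT in cells without.

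CD4 cells with and without Foxp3, the transcription factor of regulatory T cells, were also set apart. Foxp3 UMIs were found in 31 of 271 hKO and 9 of 219 WT cells. Cells without Foxp3 had Gzmb at 133 CPM in hKO against 48.0 CPM in WT (1.47, 0.96 to 2.01) and had Ccl5 at 9460 CPM in hKO against 4033 CPM in WT (1.23). Foxp3 cells had Ccl5 at 1537 CPM in hKO against 354 CPM in WT (2.12, 1.32 to 3.05). Macrophage genes made up 0.159% of UMIs in hKO and 0.0862% in WT CD4 cells, with all 8 of the list detected in both, and their part in the CD4 ratios was not tested. With every cell that held a macrophage UMI left out, only 91 of 271 hKO and 93 of 219 WT CD4 cells remained. Among these, 4 members were higher in hKO, beside 5.54% of 4082 genes.

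Counting how many of the 10 genes a thinned cell held gives a view of single cells. At least 3 were found in 45.3% of hKO CD8 cells (41.3% to 49.4%) and in 55.8% of WT CD8 cells (51.5% to 60.0%), with intervals that do not overlap. In NK cells the shares were 58.8% in hKO and 64.9% in WT, and in Itga1 Cd160 cells 43.2% in hKO and 59.1% in WT, both with overlapping intervals. CD4 cells had 26.2% in hKO and 21.0% in WT, and gamma-delta cells 2.24% in hKO and 4.76% in WT. Among B-like cells 0 of 1250 in hKO and 1 of 1318 in WT held 3. Pairs of granule genes were counted in cells that were not thinned, where a deeper cell holds more genes of any kind, and the part of depth was not tested. Of the 47 hKO CD8 cells with Gzma 66.0% also had Gzmb and 63.8% Gzmk, beside 35.6% and 50.6% of all hKO CD8 cells. Of the 107 WT CD8 cells with Gzma 72.9% had Gzmb and 74.8% Gzmk, beside 43.3% and 60.0% of all WT CD8 cells. In NK cells 69.4% of hKO and 77.1% of WT cells with Gzma also had Prf1, beside 51.0% of all hKO and 60.8% of all WT NK cells.

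Genes around the members were followed in 5 lists of the pathway. Of 21 other granule and exocytosis genes, 9 reached 50 CPM in CD8 cells and 0 were higher or lower in hKO, and of 12 that did in NK cells 1 was higher and 1 lower. Serpinb9b, a serpin related to the granzyme B inhibitor, stood at 53.1 CPM in hKO against 19.7 CPM in WT NK cells (1.43), and Gzmc, a further granzyme, at 53.1 CPM in hKO against 123 CPM in WT (−1.21). Of 11 death ligands and cytokines 3 reached 50 CPM in each of both gates, 0 differed in CD8 cells, and 1 was lower in NK cells: Ltb, a membrane-bound lymphotoxin chain, at 173 CPM in hKO against 400.1 CPM in WT (−1.21). Of 15 effector transcription factors 14 reached it in CD8 cells and 1 was lower, Id3, a repressor tied to memory T cells, at 18.3 CPM in hKO against 92.3 CPM in WT (−2.33). In NK cells 13 of them reached it and 0 differed.

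Among 20 NK receptors and adaptors 9 reached 50 CPM in CD8 cells, of which 2 were higher and 1 lower in hKO. The adaptor Fcer1g stood at 426 CPM in hKO against 185 CPM in WT (1.20) and the adaptor Tyrobp at 363 CPM in hKO against 158 CPM in WT (1.19). Both are also expressed by macrophages. All 20 reached it in NK cells and 0 differed. Of 7 checkpoint receptors, all reached it in CD8 cells and 1 was lower, Lag3, at 26.1 CPM in hKO against 85.9 CPM in WT (−1.72), and of 2 that did in NK cells 0 differed. In CD4 cells 8 of the 21 granule genes reached it with 1 higher and 0 lower, 4 of the 11 ligands with 2 higher and 0 lower, and 14 of the 15 factors with 0 higher and 3 lower. Of the 20 NK receptors and adaptors 6 reached it in CD4 cells with 3 higher and 0 lower, and of the 7 checkpoint receptors 6 with 1 higher and 0 lower. These genes of the CD4 gate were picked after their values were seen. Tyrobp stood at 493 CPM in hKO against 118 CPM in WT CD4 cells (2.06), Fcer1g at 579.7 CPM in hKO against 150.4 CPM in WT (1.95), and the Fc receptor Fcgr3 at 69.0 CPM in hKO against 23.0 CPM in WT (1.59). Havcr2, the checkpoint receptor TIM-3, stood at 109 CPM in hKO against 35.6 CPM in WT (1.61). All 4 are also expressed by macrophages, whose genes made up 0.159% of UMIs in hKO and 0.0862% in WT CD4 cells, and their part in these ratios was not tested. Ccl1, a chemokine of activated T cells, had 99 UMIs in hKO and 0 in WT CD4 cells, at 74.2 CPM in hKO.

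Over the 10 profiles of 5 gates in 2 libraries, log2 levels of Gzma and Prf1 ran together (Pearson r = 0.93), as did Nkg7 with Ccl4 (0.94) and with Ccl5 (0.91), while Gzmk ran apart from Gzma (−0.22) and Prf1 (−0.23). The profiles share libraries and were not independent samples. Among 5323 other genes the nearest to Gzma were Cetn2, Peak1 and Srbd1 (0.96 to 0.97), the nearest to Gzmb were Padi2, Mctp2 and Cd200r4 (0.94 to 0.95), and the nearest to Gzmk were BE692007, Themis and Cd6 (0.96 to 0.98). Prf1 was nearest to Pde2a, Ugcg and Serpinb9, Nkg7 to Rbbp8, Mctp2 and Cblb, Fasl to Npm3, Slc14a1 and Gm2682, and Ifng to Usp37, Srsf3 and Btbd11. Ccl3 was nearest to Zfp827, Setbp1 and Asap2, Ccl4 to Prkch, Asap2 and Gm15472, and Ccl5 to Rbbp7, Ctla2a and Racgap1. Ccl3 had the lowest best match of the 10, at 0.91. Each of these is the best of 5323 genes over only 10 profiles, and the best match of genes at large was not tested. The gamma-delta profiles lay under the CD8 profiles for all 10 members in both libraries, and their part in these correlations was not tested.

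The lymphocyte clusters held most of these transcripts but not of Ccl3 and Ccl4. Between 66.7% and 73.9% of the UMIs of the other 8 genes in hKO, and between 68.2% and 83.1% in WT, lay in T-like and NK-like cells. For Ccl3 the share was 30.3% in hKO and 26.4% in WT, and for Ccl4 28.4% in hKO and 34.5% in WT. Neutrophil-like cells (263 in hKO, 499 in WT) held 12.1% of Ccl3 UMIs in hKO and 33.5% in WT. Plasmacytoid dendritic-like cells (924 in hKO, 302 in WT) held 18.8% of Ccl4 UMIs in hKO and 9.43% in WT. Macrophage-like, monocyte-like and conventional dendritic-like cells together held 26.2% of Ccl3 UMIs in hKO and 19.3% in WT. Of Ccl4 UMIs they held 21.7% in hKO and 21.3% in WT. A share depends on the number of cells as well as on the level per cell. Cluster 17, which bore T and macrophage markers together and was left without a name and outside the gates, had 465 hKO and 177 WT cells. It held 23.4% of Gzma UMIs in hKO against 6.42% in WT, and 15.7% of Ccl3 UMIs in hKO against 4.63% in WT.

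**Figure D5:**
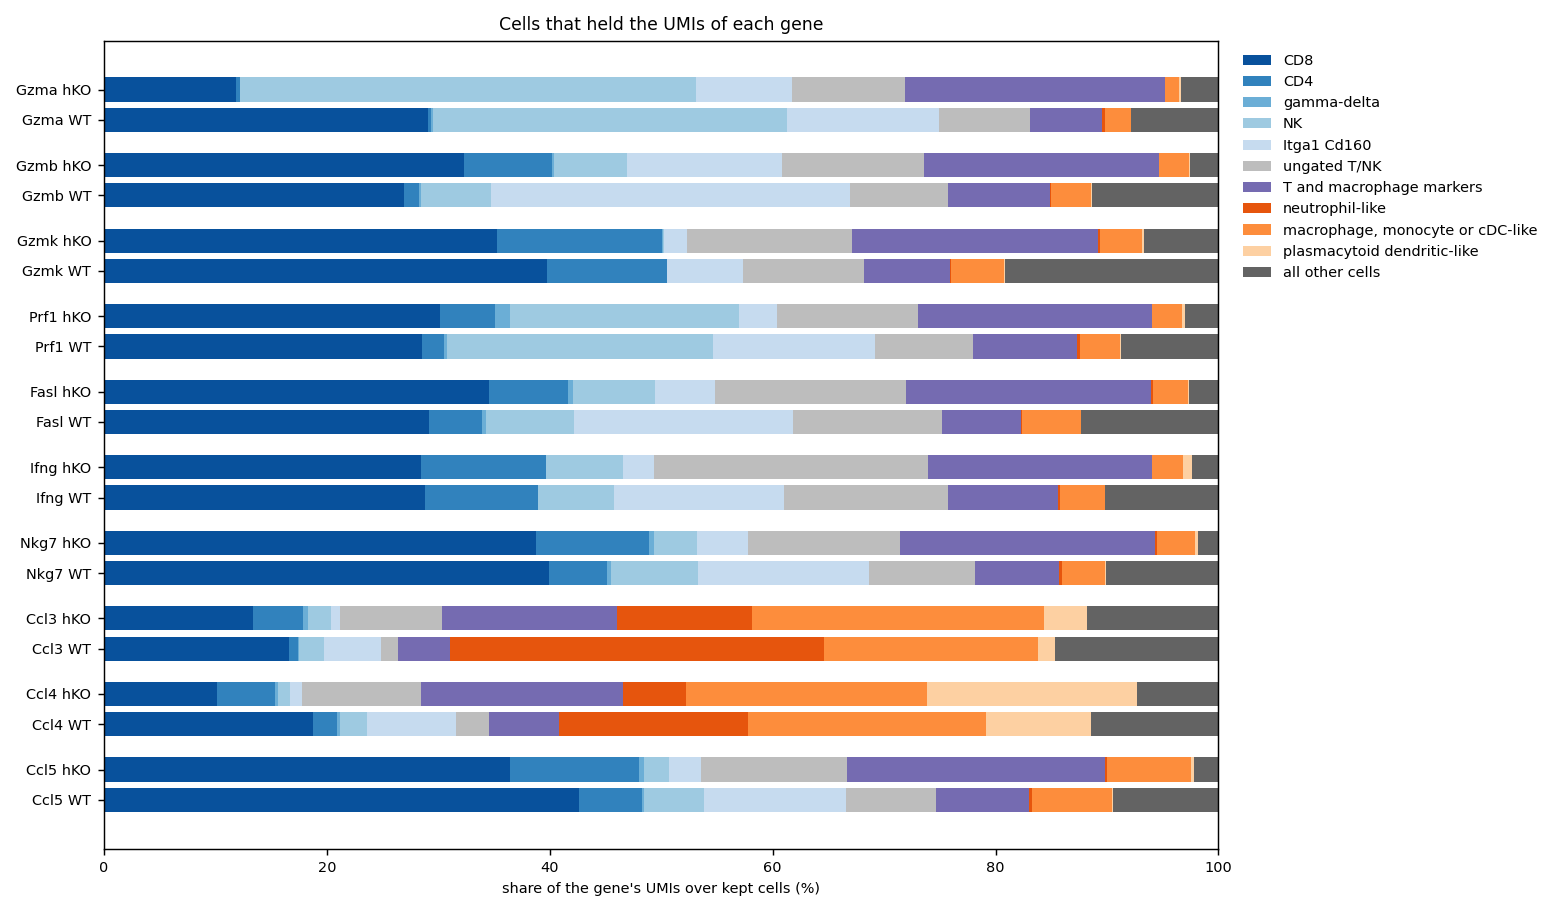
Share of the UMIs of each gene over all kept cells (%) that lay in each gate (blues), in ungated T-like and NK-like cells, in the cluster with T and macrophage markers, and in other cell classes, with hKO above WT for each gene. Neutrophil-like cells held 12.1% of Ccl3 UMIs in hKO and 33.5% in WT, and NK cells held 40.8% of Gzma UMIs in hKO and 31.8% in WT.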

How the data were processed

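Single-cell libraries were made with a 10x 3′ kit, per the labels' protocols, from pooled tumors of hKO and WT mice. The authors deposited raw UMI counts per gene and cell barcode. Per the file headers they were written by Cell Ranger 7.1.0, and the submitters' processing notes name Cell Ranger, R 3.0, Seurat 3 and mm9. Barcodes numbered 18657 in hKO and 14289 in WT. A barcode passed as a cell with 200 genes and 500 UMIs or more, and with no more than 25% of its UMIs mitochondrial. The mitochondrial limit was exceeded by 36.8% of hKO and 18.5% of WT barcodes. Scrublet then removed 1049 hKO doublets at the expected rate, because its own threshold marked too few, and 394 WT doublets at its own threshold. Cells of both libraries were clustered together with scanpy 1.11.5 (2000 variable genes, 30 components, 15 neighbors, Leiden resolution 1), without the members, and clusters were named from 16 marker lists. Gates used UMIs of lineage genes inside T-like and NK-like clusters. UMIs were summed per gate and divided by the gate's total, as CPM.

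Intervals were exact Poisson for levels, Clopper-Pearson for shares and exact conditional binomial for ratios (scipy 1.17.1), and cover counting error only. A gene at 0 UMIs was set to a floor of 3 counts. No test across samples could be made with 1 library per group, so no p-values are given. Thinning drew 1000 UMIs per cell. Members and lists were chosen with earlier results of these data known. Genes named besides the members were the 2 with the largest ratios among those counted as higher or lower in each list in the CD8 and NK gates, and the 3 most like each member over 10 profiles, by Pearson correlation of log2(CPM + 20). Counting was checked on simulated data. Alternatives were the mitochondrial limit, doublets, gates, scaling, free RNA, thinning, weighting, left-out cells and the CPM floor. One further gene list is not reported here.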

Additional observations from a re-analysis of the deposited data

Results flagged for a closer look

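Some log2 ratios of hKO over WT had opposite signs in different gates, each with an interval that leaves out 0, and the difference between gates was not tested. For Gzmb the ratio was 1.32 in CD4 cells, against −0.65 in CD8 cells and −0.22 in Itga1 Cd160 cells, and within 1 shared cluster it was 0.12 in CD8 cells and 0.44 in Itga1 Cd160 cells. For Ccl3 it was −1.10 in CD8 cells and −1.55 in Itga1 Cd160 cells, against 1.28 in CD4 cells. For Ccl4 it was −1.07 in CD8 cells, −1.62 in gamma-delta cells and −1.22 in Itga1 Cd160 cells, against 0.85 in CD4 cells. Within 1 shared cluster Ccl3 and Ccl4 lay at −1.01 and −1.78 in CD4 cells. For Nkg7 it was −1.61 in gamma-delta cells, against 0.28 in CD4 cells.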

How the results depend on the processing

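No paired analysis was possible because each group has 1 library, and no replicate could be left out. Of 735 values under the alternatives, 51, in 25 of the 49 log2 ratios, lay on the other side of 0 from the reported ratio. Of these 51, 6 belonged to ratios counted as higher or lower, 20 to others whose interval left out 0, and 25 to ratios whose interval held 0. Gzma was lower in hKO CD8 cells in all 15 alternatives run, from −3.56 to −2.38.

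The number of members counted as higher or lower moved as follows, and the cause was not tested. The number of all genes counted also moved with the setting, over the ranges given below. The member counts therefore describe the processing and are not read as results about the members. In CD8 cells it was 1 with gates on every kept cell, with median scaling, with abundant kinds of RNA left out of the total and with the 5 highest cells left out. In CD4 cells it was 1 at a floor of 200 CPM. In gamma-delta cells it was 1 at a mitochondrial limit of 10%, with gates on every kept cell, without the 5 highest cells, when thinned and at 200 CPM. In NK cells it was 1 without the 5 highest cells and 1 without cells holding a macrophage UMI. In Itga1 Cd160 cells it was 0 with gates on every kept cell and in 1 shared cluster, 1 with subclusters, 2 with median scaling, thinning, the mean over cells or 200 CPM, and 3 with abundant kinds left out or free RNA subtracted. Leaving out cells with macrophage UMIs and keeping 1 shared cluster were chosen after seeing the data.

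Among ratios counted as higher or lower, those that changed sign were Gzma in gamma-delta cells (0.011 at a mitochondrial limit of 10%), Ccl4 in gamma-delta cells (1.44 with subclusters, 1.75 in 1 shared cluster), Nkg7 in gamma-delta cells (0.67 in 1 shared cluster), Prf1 in Itga1 Cd160 cells (0.078 with subclusters) and Ccl3 in CD4 cells (−1.01 in 1 shared cluster). Among the others, 2 were counted on the other side, Ccl4 in CD4 cells (0.85 as reported, −1.78 in 1 shared cluster) and Ccl5 in gamma-delta cells (0.43, −2.14 with free RNA subtracted). Ifng in CD4 cells (−0.66, 2.18 in 1 shared cluster) and Gzma in CD4 cells (−1.55, 1.28 when thinned) also changed sign, and in 1 shared cluster Gzmb, Ifng and Nkg7 in CD8 cells lay at 0.12, 0.13 and 0.0074. Over all genes tested, the number counted as higher or lower ran from 110 to 1444 in CD8 cells (270 as reported), 127 to 1359 in CD4 cells (411), 140 to 967 in gamma-delta cells (703), 69 to 752 in NK cells (360) and 96 to 1109 in Itga1 Cd160 cells (380). No subcluster was named CD8-like, so CD8 cells have no value under that alternative. Levels near 50 CPM in the smaller gates rest on few UMIs, 16 for Ifng in hKO Itga1 Cd160 cells.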
